A study of Rattus norvegicus with 18 samples.

Results

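Prg2 encodes the major basic protein, the most abundant protein of the eosinophil's crystalloid granule. It was read by 1 probe set, D50568_at, the only probe set of the 8740 tested whose annotation names Prg2 as its single gene, and it is 1 of 4736 genes so named. The gene was selected on its own signals on these 18 arrays, the fall after fracture and the late difference between ages, so its levels are given as a description without a test.

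The RNA came from the middle of the left femur of intact female Sprague-Dawley rats, and the tissue held callus, cortex, and marrow together. Rats had a closed mid-shaft fracture around a steel rod placed in the marrow canal, and the young group was 6 weeks of age at fracture, the adult group 26, and the older group 52. Sham rats without a fracture were taken at time 0, and fractured rats at 3 days and at 1, 2, 4, and 6 weeks. The study hybridized 3 Affymetrix rat genome arrays for each age and time, and the series described here holds 1 of them, 18 in total. Each of the 18 carried a pool of 2 rats, 36 animals altogether. No unfractured femur was taken at a later time, so fracture, the rod in the canal, and the weeks of added age cannot be told apart. The 3 ages stand in as replicates for each time, and p-values measure the spread left between these arrays after additive terms for time and age. That spread includes any age difference that changes with time.

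Eosinophils are granulocytes that form in the bone marrow. Their precursors depend on the transcription factors GATA1, C/EBP epsilon, and PU.1, and Il5, Il3, and the granulocyte-macrophage growth factor drive their expansion through receptors that share the Csf2rb subunit. Granule protein mRNA is made mainly while the cells mature in the marrow, and mature eosinophils carry the stored protein and little of its mRNA. The protein is a strongly basic toxin that damages parasites and host cells and triggers mast cells and basophils.

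Prg2 mRNA was abundant in the intact femur and nearly disappeared after fracture at all 3 ages. With no fracture its signal was 1633.5 in young rats, 1741.3 in adult, and 2230.1 in older rats. At 3 days it was 54.7 in young rats, 110.2 in adult, and 25.8 in older rats. At 1 week it was 29.4, 18.3, and 22.1 in young, adult, and older rats. At 2 weeks it was 24.2, 17.1, and 26.0 in the same order of age. These signals are in the array's scaled units, in which every array averages about 500 after trimming, and values below 20 were set to 20 before taking logarithms. The adult arrays at 1 and 2 weeks were below that floor, so the folds at those times understate the adult difference.

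Signal came back in part at the last 2 times, and most of it in the young rats. At 4 weeks the signal was 405.9 in young rats, 94.9 in adult, and 81.2 in older rats. At 6 weeks it was 783.2 in young rats, 101.2 in adult, and 34.5 in older rats. All 15 fractured arrays lay below all 3 intact arrays, with 17.1 to 783.2 (median 34.5) after fracture and 1633.5 to 2230.1 (median 1741.3) with no fracture. In bulk tissue, fewer cells that make Prg2 and less Prg2 mRNA in each cell cannot be told apart.

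**Figure D1:**
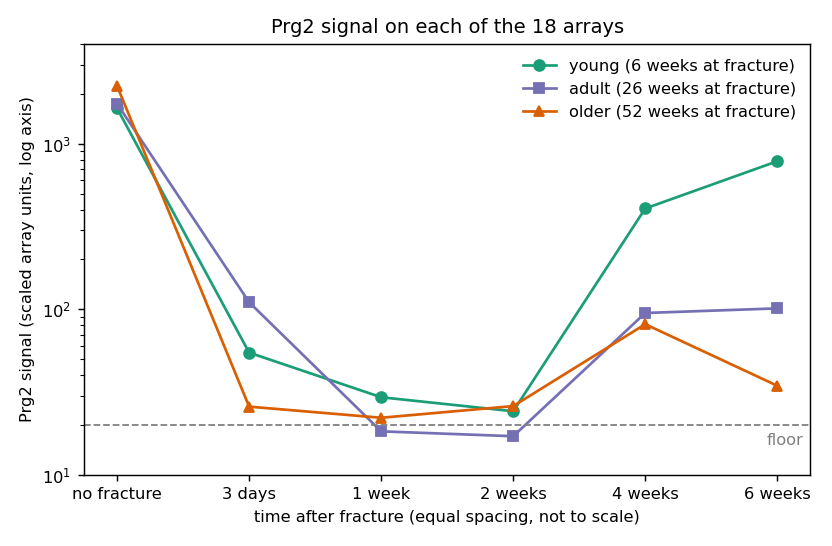
Prg2 signal in scaled array units (log axis) on each of the 18 arrays, against time after fracture, with 1 point for each age and time and no error bar because each point is 1 array. The 3 ages lie at or near the floor at 1 and 2 weeks, and at 6 weeks they spread from 34.5 in older rats to 783.2 in young rats; the dashed line is the floor of 20.

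By time, the mean signal over the 3 ages was 1868 ± 318 with no fracture, 63.57 ± 42.9 at 3 days, 23.27 ± 5.64 at 1 week, 22.43 ± 4.71 at 2 weeks, 194 ± 184 at 4 weeks, and 306.3 ± 414 at 6 weeks (SD, n = 3 each). From highest to lowest the order of times was no fracture, 6 weeks, 4 weeks, 3 days, 1 week, and 2 weeks. Only no fracture was separated from its neighbor in that order, since the arrays of every other adjacent pair overlapped. On the log2 scale the difference from the intact femur of the same age averaged -5.11 at 3 days, -6.30 at 1 week, -6.31 at 2 weeks, -3.66 at 4 weeks, and -3.73 at 6 weeks. Those means stand for signals 34.4, 78.7, 79.6, 12.7, and 13.2-fold lower than with no fracture. The SD between the ages was 1.24 at 3 days, 0.45 at 1 week, 0.21 at 2 weeks, 1.46 at 4 weeks, and 2.50 at 6 weeks. At 1 and 2 weeks every signal was between 17.1 and 29.4, at or near the floor of 20, so the small SD at those times says nothing of how alike the ages were. Without the young arrays the 6-week mean was -5.06, and without the older arrays it was -2.58.

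As a percent of the intact femur of the same age, Prg2 stood at 1.80% in young rats, 1.15% in adult, and 0.991% in older rats at 1 week. At 4 weeks it stood at 24.8%, 5.45%, and 3.64% in young, adult, and older rats. At 6 weeks it stood at 47.9% in young rats, 5.81% in adult, and 1.55% in older rats. The older 6-week array was also below the older 4-week array, whereas the young and adult arrays were higher at 6 weeks than at 4 weeks. Each of these points is 1 array, so the spread between rats of 1 age at 1 time is not known.

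Set against the whole array, the loss of Prg2, on which it was selected, was among the deepest. Its log2 difference was the 26th lowest of 8740 probe sets at 3 days, the 2nd lowest at both 1 and 2 weeks, the 5th lowest at 4 weeks, and the 3rd lowest at 6 weeks. Only 822 probe sets at 1 week and 809 at 2 weeks had an intact level from which the floor allows so large a difference. The median over all probe sets was between -0.08 and -0.01 at these times. At 1 week the only lower probe set was a further one for Alox15 (-6.54). The next ones were a probe set with no symbol (-6.11), 1 shared by several mast cell protease genes of the Mcpt8 family (-5.94), Hba-a3, a hemoglobin alpha chain (-5.81), and Nrgn, the calmodulin-binding protein neurogranin (-5.74). At 2 weeks Prg2 and the other Nrgn probe set were both at -6.31, with only a probe set without a symbol below them (-7.14).

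The age difference in Prg2, on which it was also selected, was late. Older minus young rats, the log2 difference was 0.45 with no fracture, -1.08 at 3 days, -0.41 at 1 week, 0.10 at 2 weeks, -2.32 at 4 weeks, and -4.50 at 6 weeks. The last value is a signal 22.7-fold lower in older than in young rats, and at 4 weeks it was 5-fold lower. Adult rats were below young rats by 4.28-fold at 4 weeks and 7.74-fold at 6 weeks. Of 8740 probe sets, only 1 had a lower older-minus-young difference than Prg2 at 6 weeks, a probe set shared by Septin5 and the platelet glycoprotein gene Gp1bb (-5.23). The first percentile of all probe sets was -2.01. The same shared probe set was also the only one in older rats to stand at a smaller percent of its intact signal at 6 weeks (0.612%), out of 1007 whose intact signal allowed it. In adult rats 5 probe sets stood lower than Prg2 at 6 weeks, and in young rats 494 did (5.65%).

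A measure of RNA quality moved with Prg2. The ratio of actin signal at the 3' end to that at the 5' end, which rises as RNA shortens, was 2.10 to 2.61 on the intact arrays. On the fractured arrays it was 1.48 to 1.90, except for 2.72 in young and 2.27 in adult rats at 6 weeks. At 6 weeks the ratio was thus 2.72, 2.27, and 1.89 in young, adult, and older rats, the same order as Prg2, while at 4 weeks it was 1.90, 1.71, and 1.79. The same ratio for GAPDH was 3.78, 2.15, and 1.69 at 6 weeks. The log2 of the actin ratio correlated with Prg2 at r = 0.818 over 18 arrays and at 0.717 over the 15 fractured arrays, points that share the array, its scaling, and the time course. With the actin ratio as a covariate, a fit chosen after seeing the data, the log2 difference of Prg2 was -2.24 at 3 days, -3.91 at 1 week, -3.80 at 2 weeks, -1.57 at 4 weeks, and -3.26 at 6 weeks, so the direction held and the size was smaller at each time. Alox15 and Gata1, taken up below, did not shrink in this way. With the covariate Gata1 was at -4.32 at 3 days and -4.18 at 1 week, against -4.49 and -4.33 without it. Alox15 was at -4.50 and -4.24 at these times, against -3.97 and -3.79. At 4 weeks the ratios were 1.71 to 1.90 and the Prg2 signals spanned 5-fold, with the young array the highest in both. The part of RNA quality in the differences of Prg2 between times or ages was not tested.

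The eosinophil label could be checked only in part. Of 18 eosinophil genes listed, Prg2 and 2 others were read by a probe set of their own. Ccr3, the eotaxin receptor of eosinophils, lay near the floor on every array (4.5 to 49.0) and passed the test at no time. Alox15, a lipoxygenase that is abundant in eosinophils and also made by some macrophages and red cell precursors, followed the course of Prg2. Its signal with no fracture was 3116 in young rats, 6924 in adult, and 3040 in older rats. It was 480.9, 231.8, and 153.7 at 3 days, and 517.6, 215.9, and 219.9 at 1 week, in young, adult, and older rats. At 6 weeks it was 1829 in young rats, 819.5 in adult, and 734.9 in older rats. All fractured arrays were below all intact ones, and the young array was the highest of the 3 ages at every fractured time.

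Alox15 was 15.6-fold lower at 3 days than with no fracture (limma adjusted p = 0.00011), 13.9-fold at 1 week (adjusted p = 0.00023), 12-fold at 2 weeks (adjusted p = 0.00037), 4.63-fold at 4 weeks (adjusted p = 0.0091), and 3.90-fold at 6 weeks (adjusted p = 0.019). Between 1 and 6 weeks it rose (log2 difference 1.83, adjusted p = 0.035). Its further probe set fell more, with a log2 difference of -6.54 at 1 week (adjusted p = 0.00042), and did not pass at 4 weeks (adjusted p = 0.059) or 6 weeks (adjusted p = 0.10). At 6 weeks Alox15 stood at 58.7% of the intact signal in young rats, 11.8% in adult, and 24.2% in older rats. By this percent, unlike Prg2, it was lowest in the adult rats, whose single intact array was the highest (6924). By signal at 6 weeks the older rats were lowest, as for Prg2, with 734.9 against 819.5 in adult rats. The further probe set had 459.0 in older and 718.0 in adult rats. Its older-minus-young difference over all 6 times was -1.36 on the log2 scale and did not pass (adjusted p = 0.11).

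A probe set whose annotation names both Rnase3, the eosinophil cationic protein of the granule, and LOC100361866 cannot be given to either gene. It had 640.0, 765.8, and 595.7 with no fracture in young, adult, and older rats, 208.4, 181.5, and 207.9 at 1 week, and 416.7, 266.8, and 254.2 at 6 weeks. No fractured array reached the intact ones. It was 3.34-fold lower at 1 week (adjusted p = 0.00042) and 2.18-fold lower at 6 weeks than with no fracture (adjusted p = 0.012), a much shallower course than that of Prg2.

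Genes that make and attract eosinophils were called in both directions. Of 23 such genes listed, 14 were measured, and at 1 week 3 were called higher and 1 lower than with no fracture. For comparison, 18% of all 8740 probe sets were called higher at 1 week and 17.8% lower, both at an adjusted p below 0.05. At 3 days the same 4 genes were called, 3 higher and 1 lower, where 18.9% of all probe sets were higher and 20.4% lower. The median log2 difference of the 14 genes was -0.19 at 1 week, against -0.04 for all probe sets. At 2 weeks 2 were higher and 1 lower, where 16.1% of all probe sets were higher and 16.8% lower, and at 4 weeks 1 was higher and 1 lower, where 11.5% were higher and 9.7% lower. At 6 weeks limma called none of the 14 (1 of them at an unadjusted p below 0.05), where 8.34% of all probe sets were higher and 7.11% lower.

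Il33, an alarmin that activates eosinophils and mast cells, rose. It had 305.8, 246.2, and 422.1 at 3 days, against 84.4, 162.8, and 153.7 with no fracture, at the young, adult, and older ages. The difference was 2.47-fold at 3 days (adjusted p = 0.0085) and 2.04-fold at 1 week (adjusted p = 0.029). Il4r, the receptor chain shared by Il4 and Il13, had 529.7 to 760.7 at 3 days, against 270.8 to 365.8 with no fracture, with no overlap (2.05-fold, adjusted p = 0.0022). It was still higher at 4 weeks (1.57-fold, adjusted p = 0.043). Itgb1, the beta chain of the integrin that binds Vcam1, rose 1.69-fold at 3 days (adjusted p = 0.014) and 1.72-fold at 2 weeks (adjusted p = 0.015).

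Vcam1, the endothelial and stromal ligand that holds eosinophils and other blood cells, was the called gene that fell. At 3 days it had 124.4 in young rats, 97.0 in adult, and 128.4 in older rats, against 346.6, 626.5, and 603.4 with no fracture. The log2 difference was -2.13 at 3 days (adjusted p = 0.00028), -1.59 at 1 week (adjusted p = 0.0022), and -1.40 at 2 weeks (adjusted p = 0.0048). The further probe set of Vcam1 fell less, with -1.09, -0.71, and -0.67 at the same times, and did not pass at 2 weeks (limma adjusted p = 0.066). By 4 weeks the brighter probe set of Vcam1 had 798.1, 516.6, and 468.0 in young, adult, and older rats and did not pass the test (adjusted p = 0.73). Selp, the selectin of platelets and endothelium, was called lower at 4 weeks alone (log2 difference -0.92, adjusted p = 0.048).

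The eosinophil cytokines themselves were faint. Il5, the main growth factor of eosinophils, had 13.7 to 35.2 at 1 week, against 38.2 to 89.9 with no fracture, and did not pass (log2 difference -1.18, adjusted p = 0.058). Il3 ranged from 50.4 to 123.6 over all arrays, with a log2 difference of -0.41 at 1 week (adjusted p = 0.20). Il13, whose signal reached 168.1, had a log2 difference of 0.18 at 1 week (adjusted p = 0.87). Il4 was below the floor on 1 of the 3 intact and 13 of the 15 fractured arrays. Ccl11, or eotaxin, was below it on all 18 arrays, and Ccl5, a chemokine for eosinophils and T cells, on 2 intact and 14 fractured arrays. No change could be read for these last 3 genes.

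The receptors on the responding cells were mixed. Csf2rb, the receptor subunit shared by Il3 and Il5, had 478.8, 347.3, and 445.2 at 1 week, against 396.5, 645.3, and 583.4 with no fracture, and did not pass at any time. Ccr1, a chemokine receptor of several white cells, had a log2 difference of 0.48 at 1 week (adjusted p = 0.48). The probe sets of Il1rl1, the receptor of Il33, disagreed. The brighter one on average in log2 had 84.9 to 112.3 at 1 week and 93.1 to 140.6 with no fracture (adjusted p = 0.38). The further probe set had 368.3, 267.0, and 368.2 at 3 days, against 33.8, 25.0, and 9.2 with no fracture in young, adult, and older rats. It rose 12.9-fold at 3 days (adjusted p = 0.00073) and 8.63-fold at 1 week (adjusted p = 0.0026).

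**Figure D2:**
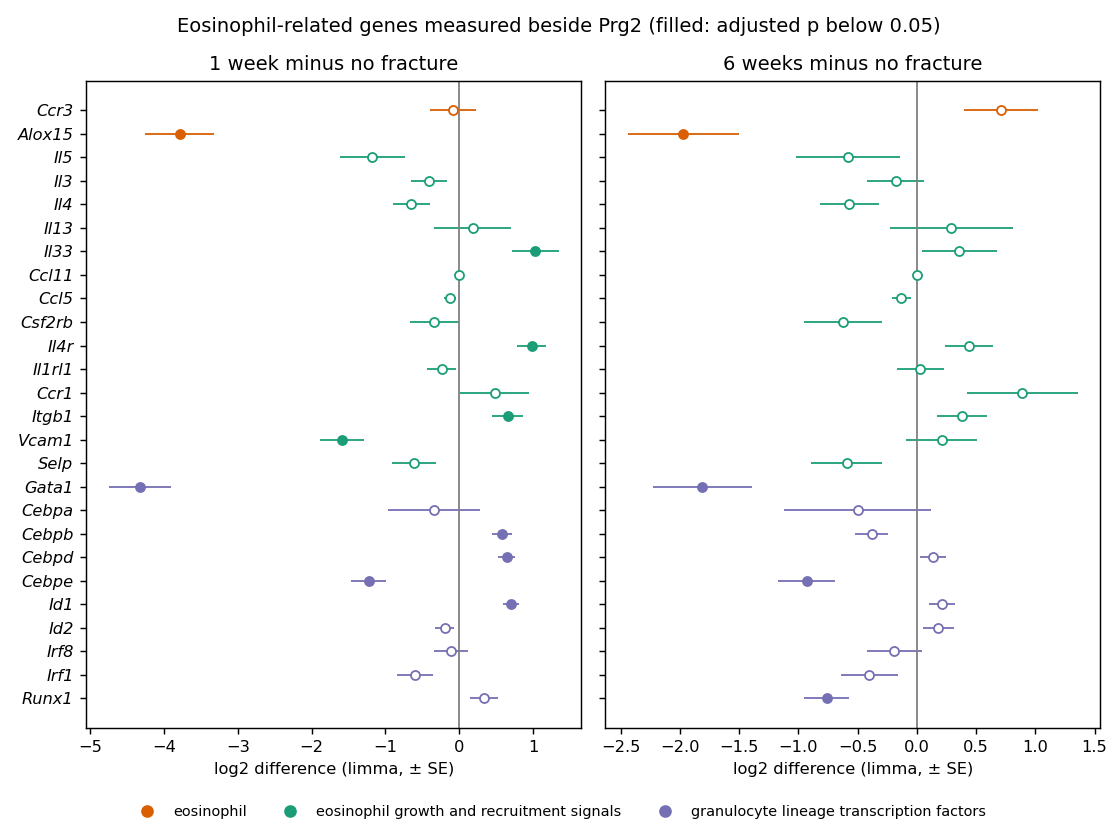
Log2 difference from no fracture (limma, bars ± SE, 3 arrays per time) at 1 week (left) and 6 weeks (right) for the 26 eosinophil-related genes measured beside Prg2; filled points passed an adjusted p below 0.05. At 1 week Alox15 (-3.79) and Gata1 (-4.33) lie far to the left of the others, and at 6 weeks both lie near -2 while no gene of the growth and recruitment list passes.

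Among the transcription factors of granulocyte lineages, the fall of Gata1 came closest to that of Prg2. Of 16 listed, 10 were measured, and at 1 week 2 were called lower and 3 higher, where 17.8% of all probe sets were lower and 18% higher. Gata1, which drives eosinophil, mast cell, erythroid, and megakaryocyte precursors, had 67.0 in young rats, 53.1 in adult, and 48.2 in older rats at 1 week, against 957.6, 1154.9, and 1259.6 with no fracture. At 6 weeks it had 445.7, 260.4, and 276.5. It was 20.1-fold lower at 1 week (adjusted p = 7e-05), 10.9-fold at 2 weeks (adjusted p = 0.00027), and 3.51-fold at 6 weeks (adjusted p = 0.017). From 1 to 6 weeks it rose (log2 difference 2.52, adjusted p = 0.0047). Cebpe, the factor required for granule formation in eosinophils and neutrophils, was faint, with 30.2 to 34.7 at 1 week against 68.4 to 82.2 with no fracture. It was called lower at all 5 times, with a log2 difference of -1.23 at 1 week (adjusted p = 0.0027) and -0.93 at 6 weeks (adjusted p = 0.026).

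Cebpb and Cebpd, C/EBP factors induced in inflammation, went the other way. At 1 week Cebpb rose by a log2 difference of 0.58 (adjusted p = 0.0087), Cebpd by 0.64 (adjusted p = 0.0014), and Id1, an inhibitor of basic helix-loop-helix factors, by 0.70 (adjusted p = 0.00097). The 3 probe sets of Cebpd disagreed at 1 week, with log2 differences of 0.64, 3.91, and -0.54, all of them called. The further probe set of Cebpb rose more (log2 difference 2.73), and that of Id1 had a log2 difference of 0.08. Irf1, an interferon-response factor, was lower at 3 days alone by its brighter probe set (log2 difference -0.91, adjusted p = 0.012), and its dimmer one was in the other direction. Runx1, a regulator of blood stem cells, was lower at 6 weeks (log2 difference -0.76, adjusted p = 0.025). Id2, Cebpa, and Irf8 had log2 differences at 1 week of -0.20, -0.34, and -0.11 and passed at no time.

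The number of these calls depended on the arrays in the fit. Of the 26 genes in the 3 eosinophil-related lists, 6 were called higher at 1 week, where 18% of all probe sets were. The count was 1 without the adult arrays, 2 without the older arrays, and 1 with the actin ratio as a covariate. Calls over all probe sets, in either direction, fell from 3126 to 1051, 1189, and 1022 in the same settings. The log2 differences of the 6 genes at 1 week moved less when 1 age was left out. They were 0.51 to 0.65 for Cebpb, 0.62 to 0.68 for Cebpd, and 0.63 to 0.79 for Id1. For Itgb1 they were 0.60 to 0.77, for Il4r 0.76 to 1.25, and for Il33 0.90 to 1.26. At 6 weeks 4 of the 26 were called lower, where 7.11% of all probe sets were. These 4 fell to 0 both without the adult arrays and without the older arrays (5 at an unadjusted p below 0.05 each time). Calls over all probe sets fell from 1350 to 57 and 46. Gata1 kept its calls at 3 days and 1 week in all 10 alternative settings, and Alox15 in all but the one that fitted only the compared arrays (adjusted p = 0.051 at 3 days and 0.073 at 1 week). Over all times limma called none of the 26 genes between older and young rats (7 of them at an unadjusted p below 0.05), where 0.446% of all probe sets were.

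Markers of other blood cell types of the marrow were among the genes called lower with Prg2, and they came back to different degrees. The counts of the 8 lists at 1 week stand against 17.8% of all probe sets called lower and 18% called higher. All 6 measured neutrophil genes were lower at 1 week, with a median log2 difference of -3.90. The 3 largest were Defa5, a defensin (-4.67), S100a8 (-4.25), and S100a9 (-4.11), the calprotectin subunits. The summed signal of the 6 was 3097 to 6836 at 1 week, against 58190 to 77610 with no fracture. Of 9 erythroid genes, 8 were lower, led by Hba-a3 (-5.81), the anion exchanger Slc4a1 (-5.38), and the erythropoietin receptor Epor (-5.33), and their sum was 4491 to 24550 at 1 week, against 70810 to 139300. Their median log2 difference was -3.28. Of 14 mast cell and basophil genes, which had a median of -1.11, 8 were lower, led by the IgE receptor chain Ms4a2 (-4.33), the histamine-forming enzyme Hdc (-3.55), and the amine transporter Slc18a2 (-2.67), with sums of 2245 to 3291 at 1 week, against 5665 to 7088. Gata1 is also a factor of the erythroid and mast cell lines, and the part of each cell type in its signal, or in that of Alox15, was not tested.

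Platelet, lymphoid, and dividing cell lists had median log2 differences at 1 week of -1.25 for platelet, -1.83 for B cell, -0.32 for T and killer cell, and -1.87 for cell division genes. At 1 week 3 of 6 megakaryocyte and platelet genes were lower, led by Itga2b (-3.45), Pf4 (-3.26), and Gp5 (-2.64). Both B cell genes were lower, Cd79b (-2.43) and Cd24 (-1.23), as were 5 of 14 T and killer cell genes, led by Klrb1a (-1.08), Cd247 (-1.07), and Cd3g (-0.99). Of 9 cell division genes 8 were lower, with Ccne1 (-2.41), Mcm6 (-2.36), and Top2a (-2.25) the farthest. Most macrophage genes went the other way. Of 7 measured, 4 were higher at 1 week, with the elastase Mmp12 at 3.75, the galectin Lgals3 at 2.06, and the endotoxin receptor Cd14 at 1.32, and Lyz2, a lysozyme, was lower (-1.11, adjusted p = 0.0075). Their summed signal was nonetheless lower, with 11510 to 14910 at 1 week, against 16200 to 18040 with no fracture. Only Lyz2 and Aif1 (-0.48, not called) had a negative log2 difference at 1 week, so the lower sum does not stand for the list. At 3 days and 4 weeks the sum was also lower, but it reached 16840 at 2 weeks and 17900 at 6 weeks, inside the intact range. Leaving out 1 age left 4 to 6 neutrophil, 7 to 9 erythroid, 4 to 10 mast cell and basophil, and 5 to 8 cell division genes called lower at 1 week, with 1 B cell gene whichever age was omitted, 0 T and killer cell genes without the adult arrays and 2 macrophage genes called higher without the older arrays. Bone itself was present on every array, since the collagen gene Col1a1 had at least 2521 and the osteocalcin gene Bglap at least 4351.

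At 6 weeks the blood lists stood closer to the intact femur than Prg2 did in the older rats. Prg2 was selected on its fall and its late difference between ages, so a low standing beside other genes follows in part from that choice. The median over the neutrophil genes was 69.5% of the intact signal in young rats, 26.6% in adult, and 16.4% in older rats. The same median was 126%, 28.7%, and 36.4% for erythroid genes and 52.1%, 38.3%, and 46.2% for platelet genes, in young, adult, and older rats. For mast cell and basophil genes it was 198%, 76.8%, and 96.2%. Of these 14 genes 4 were called higher and 3 lower than with no fracture, where 8.34% of all probe sets were higher and 7.11% lower. Both counts of mast cell and basophil genes were 0 without the adult arrays and 0 without the older arrays. Cell division genes stood at 76.2%, 42.8%, and 32.5%, and all probe sets at a median of 100%, 94.8%, and 100%. The floor of 20 limits how low a gene of modest intact signal can stand. In the older rats only 21 of the 67 members of the 8 lists had an intact signal high enough to stand below Prg2's 1.55% at 6 weeks. None of these 21, which held 5 of the 6 neutrophil and 6 of the 9 erythroid genes, did. The listed platelet gene Gp1bb is not among the 67, because its probe set is shared with Septin5. That probe set stood lower than Prg2, at 0.612%. At 4 weeks 30 of the 67 could have stood below its 3.64%, and none did. In the adult rats 1 erythroid gene stood below Prg2 at 6 weeks. In the young rats, where Prg2 was at 47.9%, 1 of the 6 neutrophil genes, 1 of the 9 erythroid genes, 1 of the 14 mast cell and basophil genes, 2 of the 6 platelet genes, and 3 of the 10 granulocyte transcription factors stood lower.

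**Figure D3:**
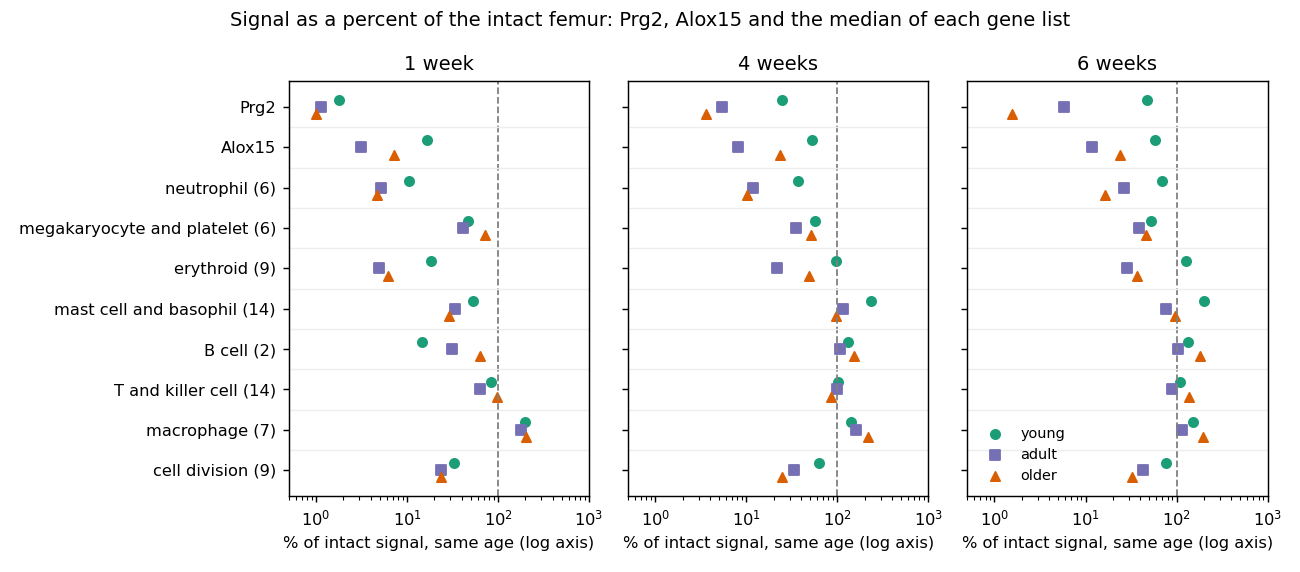
Signal as a percent of the intact femur of the same age (log axis) at 1, 4, and 6 weeks for Prg2, for Alox15, and for the median of each gene list, with the number of genes in brackets; each point is 1 age, and the dashed line is 100%. Prg2 is the farthest left at each time in adult and older rats, and at 6 weeks its 3 ages span 1.55% to 47.9%.

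The genes whose pattern was most like that of Prg2 combined a fall with a return in the young rats. Over the 18 arrays, Pearson's r of log2 signal was highest for Slc37a1, a sugar phosphate transporter (0.964), and Tesc, the calcium-binding protein tescalcin (0.962). The points share arrays, scaling, and the contrast of intact with fractured bone, so r is a description, and across 4566 genes its median was 0.146, with 50 genes above 0.9. Over the 15 fractured arrays alone r was 0.902 for Slc37a1 and 0.901 for Tesc. With the mean of each time point removed, which leaves the order of ages, it was 0.926 and 0.901. In both genes the 6-week signal was far higher in the young rats than in the other ages. Slc37a1 had 184.5 in young rats, 13.9 in adult, and 18.5 in older rats at 6 weeks, against 264.1, 293.3, and 298.7 with no fracture. Tesc had 204.4 in young rats, 30.3 in adult, and 22.6 in older rats at 6 weeks, against 463.3, 479.3, and 534.9 with no fracture. Both genes were below the floor of 20 on many fractured arrays, which were set to the same value before r was taken. At 1 week, for example, Slc37a1 had 19.8, 18.8, and 19.9 and Tesc 16.6, 16.0, and 18.7 in young, adult, and older rats.

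The other 10 of the 12 most similar genes had r from 0.934 to 0.950. They were Pttg1, the securin of mitosis (0.950), Arrb2, an arrestin of receptor signaling (0.948), Ccne1, a cyclin of the G1 to S transition (0.947), Pf4, a platelet chemokine (0.942), and Slbp, which binds histone mRNA (0.941). The remaining ones were Megf10, an engulfment receptor (0.936), Samd1 (0.936), Pla2g2a, a secreted phospholipase A2 (0.935), Asns, asparagine synthetase (0.935), and Mxd3, a partner of MAX (0.934). Megf10 is the least secure of them, as its signal ran only from 17.9 to 43.7. Pla2g2a had the deepest fall of the 10, with 42.6, 35.0, and 32.8 at 1 week in young, adult, and older rats, against 919.6, 2153.4, and 1366.9 with no fracture. At 6 weeks it had 450.0 in young rats, 168.8 in adult, and 125.2 in older rats, a return in all 3 ages that was largest in the young.

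In the older rats at 6 weeks, Slc37a1 stood at 6.70% and Tesc at 4.23% of the intact signal, but the floor of 20 lets them go no lower than 6.70% and 3.74%, so they cannot be set against the 1.55% of Prg2. The other 10 were between 9.16% and 49.2%. Only 6 of the 12 had an intact signal that could have shown a percent below that of Prg2, the lowest of which was Pla2g2a at 9.16%. Alox15 correlated with Prg2 at 0.871 and Gata1 at 0.852 over the 18 arrays. Without the adult and older intact arrays, the 2 arrays where Prg2 was farthest from its median, r was still 0.939 for Slc37a1 and 0.936 for Tesc. After removal of the time means, the next genes were Gpr6, an orphan receptor (0.893), Megf10 (0.878), and Dnah9, a cilia motor protein (0.870), but over all 18 arrays r was only 0.329 for Gpr6 and 0.410 for Dnah9, and the signal of Gpr6 stayed under 60 on all arrays.

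The 5 genes most opposite to Prg2 were Pmepa1, an inhibitor of transforming growth factor beta signaling (r = -0.946), Comp, a cartilage matrix protein (-0.945), Timp2, a metalloproteinase inhibitor (-0.942), Tagln, an actin-binding protein of smooth muscle (-0.939), and Lamp2, a lysosomal membrane protein (-0.931). Comp showed the reverse order of ages at 6 weeks, with 162.4 in young rats, 473.8 in adult, and 1531 in older rats, against 102.8, 99.8, and 72.2 with no fracture. As every array is scaled to the same average, a share lost by marrow transcripts is gained by others, and how much of these opposite courses that makes was not tested.

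**Figure D4:**
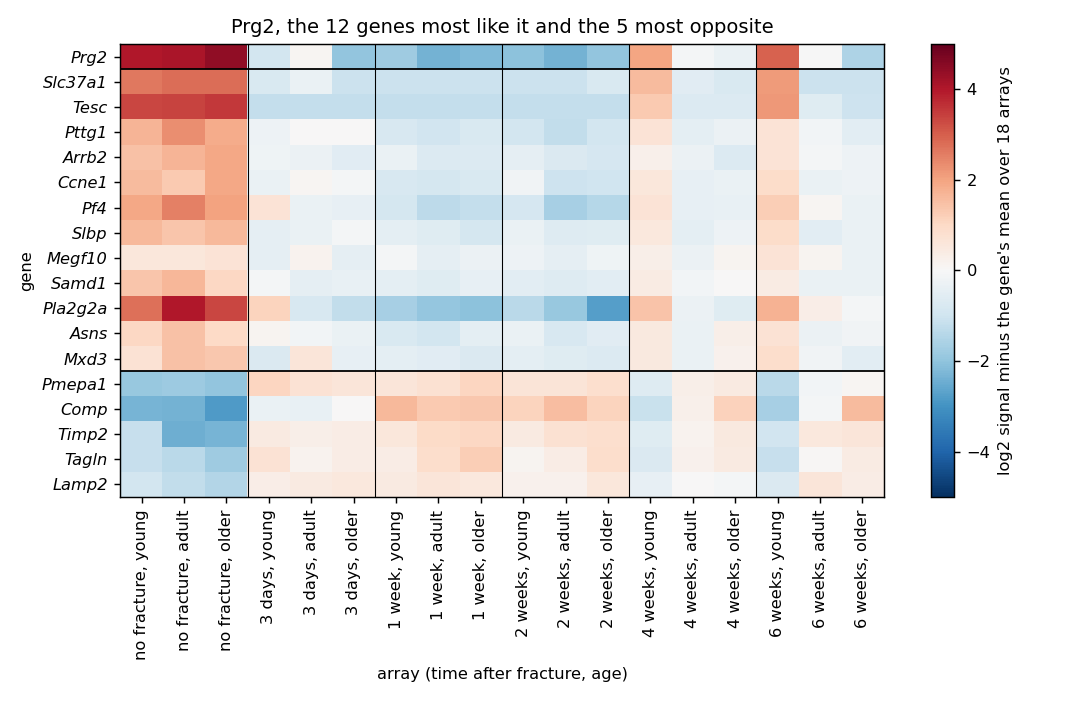
Log2 signal minus each gene's mean over the 18 arrays, for Prg2 (top row), the 12 genes with the highest r with it, and the 5 with the lowest (bottom rows); columns run by time and, within each time, young, adult, and older. The first 13 rows are high in the 3 intact columns and again in the young columns at 4 and 6 weeks, and the last 5 rows are low there.

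Genes that lie near Prg2 on chromosome 3 had smaller differences in both directions. Of its neighbors within 500 kb, 6 were measured. At 1 week, Tfpi, an inhibitor of coagulation, and Serping1, an inhibitor of complement, were higher than with no fracture (log2 differences 1.00, adjusted p = 0.0056, and 1.57, adjusted p = 0.0025). Ssrp1, a histone chaperone, was lower (-0.52, adjusted p = 0.026). Of all probe sets, 18% were called higher and 17.8% lower at that time. Zdhhc5, P2rx3, and Or5ak25 had log2 differences of 0.11, 0.75, and -0.67 and did not pass.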

How the data were processed

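The deposited values are signal intensity, which the authors computed with Affymetrix Microarray Suite 5.0 and scaled to an average of 500 on each array. A value is therefore a share of an array's signal. The trimmed mean of each column (2% from each end) was 500.7 to 500.8, and 12.3% to 20.3% of probe sets per array were below the floor of 20. The number of arrays limits the precision. Present calls were not used here.

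Of 8799 probe sets, 59 controls were left out. Signals under 20 were set to 20 and log2 transformed. The model in limma 3.58.1 (R 4.3.3) held time and age as additive terms for each of 8740 probe sets, with a trend in the moderation and 10 residual degrees of freedom. Benjamini-Hochberg adjusted p-values below 0.05 were called, and the script was tested on simulated data. Annotation gave 7006 probe sets 1 gene, 308 several, and 1426 none. Where a gene had several, the brightest in mean log2 stood for it. Genes near Prg2 came from RefSeq (GRCr8).

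Prg2, the 11 gene lists, and the tests were chosen with earlier results of these data known. Named genes were Prg2, the 12 most and 5 least correlated genes, the 5 most correlated within times, every measured gene of the 3 eosinophil-related lists, up to 3 called genes of the other lists with the largest change at 1 week, and the probe sets next to Prg2 in rank at 1 week. Those next to it at 2 weeks, and the extremes of age at 6 weeks, were named after their values were seen. Alternatives were a floor of 100, an added constant of 50, a mean signal of at least 200, the actin ratio as a covariate, only the arrays compared, quantile normalization, median centring, and leaving out each age.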

Additional observations from a re-analysis of the deposited data

Results flagged for a closer look

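Of 39 genes whose late response was checked, 5 moved in opposite directions in older and young rats at both 4 and 6 weeks, measured as the mean log2 difference from no fracture on each gene's leading probe set. With 1 array for each age and time, these differences were not tested. The share of all probe sets that moved in this way was not counted, so the 5 cannot be read as particular to these genes. Csf2rb, the receptor subunit shared by Il3 and Il5, was at -1.40 in older and 0.36 in young rats, a difference of -1.77, with adult rats at -0.90. Vcam1 was at -0.27 in older and 1.20 in young rats, a difference of -1.47, but by its other probe set older rats were at -0.38 at 4 weeks and 0.78 at 6 weeks, so the opposite movement did not hold there. Il1rl1 was at -0.39 in older and 0.53 in young rats, a difference of -0.92, and its other probe set ran the other way, at 1.93 in older and -0.76 in young rats. Il13 was at 1.16 in older and -0.77 in young rats, a difference of 1.93 that rests on an intact signal of 33.0 in older and 168.1 in young rats. Cebpd was at 0.34 in older and -0.05 in young rats, a difference of 0.39, and its other probe sets were at 0.05 and 2.55 in older and at -0.62 and 0.04 in young rats. By the leading probe set of Cebpd, young rats were at only -0.02 at 4 weeks and -0.08 at 6 weeks.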

How the results depend on the processing

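No log2 difference followed through the alternatives run on all probe sets changed direction. Other probe sets of a gene did turn it: at 1 week Cebpd was at -0.54 by a further probe set and 0.64 by its leading one, and at 3 days Irf1 was at 0.66 against -0.91 and Il1rl1 at 3.69 against -0.42. The log2 difference of Prg2 was -4.21 at 1 week and -4.21 at 2 weeks with a floor of 100, and -4.70 and -4.72 with 50 added before the logarithm, since both raise the values near the floor. With the actin ratio as a covariate, an alternative chosen after seeing the data, it was -2.24 at 3 days, -3.91 at 1 week, -3.80 at 2 weeks, and -1.57 at 4 weeks. The cause was not tested. Prg2 has a single probe set, so the alternative with its other probe sets could not be run. Age is a term of the model, so times were compared within ages; beyond that, no paired analysis was possible because each group of age and time holds 1 array.

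Counts of called probe sets depended strongly on the arrays. The counts of 3437, 3126, 2868, 1855, and 1350 at 3 days and 1, 2, 4, and 6 weeks were 1181, 1022, 679, and 180 for the first 4 times with the actin covariate. They were 902, 356, 0, 0, and 0 with only the compared arrays, where the fits have fewer samples; at the last 3 times 2517, 1614, and 1272 had an unadjusted p below 0.05 in limma. A mean signal of 200 or more left 2056 at 1 week, as fewer probe sets were tested. Leaving out 1 age gave 1742 to 2776, 1051 to 2684, 884 to 2458, 37 to 2011, and 46 to 1636, with the low ends from omitting adult or older arrays. Between older and young rats the 39 called became 64 with median centring, 8 with a floor of 100, and 76 with 50 added. The balance of direction among called probe sets also turned. Between older and young rats 46.2% of those called were higher, against 68.8% with median centring and 87.5% with a floor of 100. At 4 weeks 54.3% were higher, against 43.2% without the adult and 36.9% without the older arrays.

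Of all probe sets, 20.4%, 17.8%, 16.8%, 9.7%, and 7.11% were called lower at 3 days and 1, 2, 4, and 6 weeks. The shares called higher were 18.9%, 18%, 16.1%, 11.5%, and 8.34%. Of the 26 eosinophil-related genes, those called lower at 3 days and 1, 2, 4, and 6 weeks (5, 4, 4, 4, and 4) were 2, 1, 0, 0, and 0 with only the compared arrays. At 4 weeks they were 2 with a floor of 100 and 0 with the actin covariate. Leaving out 1 age gave 2 to 4 at 2 weeks, 0 to 5 at 4 weeks, and 0 to 4 at 6 weeks. Those called higher (6, 6, 2, 1, and 0) were 0, 1, 0, and 0 at the first 4 times with the actin covariate and 1, 0, 0, and 0 with only the compared arrays. At 4 weeks they were 0 with a floor of 100 and 2 with a mean signal of 200 or more. Leaving out 1 age gave 3 to 5, 1 to 6, 0 to 4, 0 to 3, and 0 to 3.

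Of the 12 genes most like Prg2, 4 stayed among the top 12 with a floor of 100, 5 by Spearman's rank correlation, 6 over the fractured arrays, 4 after removing time means, and 5 to 6 without 1 age.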
